A study of Mus musculus with 18 samples.

Results

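The IFIT genes Ifit1, Ifit2, Ifit3 and Ifit3b, the ISG15 system genes Isg15, Usp18 and Herc6, and the antiviral effectors Rsad2, Cmpk2 and Ifi44 are genes that interferon switches on in mouse cells. Their rows were found by symbol in the deposited table of gene counts. The genes were chosen with earlier results of these data known. All 10 symbols had a row among the 24421 genes of the table, and all 10 were among the 13507 genes that passed the filter on low counts.

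RNA was sequenced from 4T1, a mouse breast carcinoma line, and from 4T1R1 and 4T1R2, populations that were selected from 4T1 for resistance to 17-DMAG, an inhibitor of the chaperone HSP90. Each of the 3 populations was harvested untreated or after exposure to 1.5 µM 17-DMAG, which gave 6 groups of 3 libraries. The sample records give 48 h of exposure and the design text of the series gives 2 h, and these sources also differ on the dose and length of the exposures used for selection. 4T1R1 and 4T1R2 were each 1 selected population that was expanded without the drug. Differences between the libraries of a group therefore describe repeats of that population and not repeats of the selection. All of the cells were cultured in the same medium, and no interferon was listed as a treatment.

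Type I interferon binds the receptor chains IFNAR1 and IFNAR2, which activate the kinases JAK1 and TYK2. These phosphorylate STAT proteins, STAT2 among them, and a complex that holds STAT2 and IRF9 binds interferon-stimulated response elements in the promoters of its targets. IFIT proteins bind foreign RNA and block its translation. ISG15 is a ubiquitin-like protein that is attached to other proteins by the enzymes UBA7 and UBE2L6 and the ligase HERC6, and USP18 removes it and also damps signalling at IFNAR2. Viperin, the product of Rsad2, makes a chain-terminating nucleotide that stops viral RNA synthesis, and Cmpk2 encodes a mitochondrial nucleotide kinase. Ifi44 encodes an interferon-induced cytoplasmic protein.

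The 4 IFIT genes lay on the plus strand of chromosome 19 (GENCODE vM21 annotation of GRCm38) within 99316 bases, at chr19:34550694-34576419 for Ifit2, chr19:34583531-34588731 for Ifit3, chr19:34607970-34613401 for Ifit3b and chr19:34640871-34650009 for Ifit1. Rsad2 at chr12:26442746-26456452 (minus strand) and Cmpk2 at chr12:26469204-26479837 (plus strand) were separated by 12752 bases, and each was the nearest tested gene of the other on that side. The others were Isg15 at chr4:156199424-156200818 (minus strand), Usp18 at chr6:121245906-121270917 (plus strand), Herc6 at chr6:57581000-57664632 (plus strand) and Ifi44 at chr3:151730922-151749960 (minus strand). Outside the IFIT genes, the nearest tested genes were Lipa, 23220 bases before Ifit2, and Pank1, 156931 bases after Ifit1, and Ifit1bl2 ended 128 bases before Ifit1. Each count was for a whole gene, so exons and isoforms were not separated.

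Some of these rows can share reads. The longest transcripts of Ifit3 and Ifit3b were 98% identical over 1697 aligned bases. Of all 50-base windows of the transcripts, 51.2% of those of Ifit3 and 45.0% of those of Ifit3b occurred in another gene. How reads with several matches were counted is not given in the sources used here, so the split of reads between Ifit3 and Ifit3b was uncertain. The share of such windows was 7.14% for Ifit1, mostly with Ifit1bl2, 12.5% for Herc6 and 3.96% for Isg15, and it was 0% for the other 5 genes. Usp18 overlapped the annotated gene Gm44148, and Herc6 overlapped Gm45193 and Gm19244, none of which had a row in the count table.

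The promoter sequences show what several of these genes have in common in sequence. RefSeq windows on GRCm38.p6, from 250 bases before to 50 bases after a start site, were present for 9 of the 10 genes, all but Usp18. The core of an interferon-stimulated response element, written as GAAA, any 2 bases and GAAA again, was searched on both strands (TTTC, any 2 bases and TTTC when it lies on the other strand), and overlapping matches were counted separately. At least 1 match was found in Isg15, Rsad2, Ifit3, Ifit3b and Ifit1, which is 5 of the 9 genes (55.6%). Of all 27025 genes with a window 3.99% held a match, and among other interferon pathway genes tested here the share was 18 of 54 genes (33.3%). The stretches that hold the matches are printed below in the direction of the gene, with the matching letters in capitals.
Isg15, chr4:156200860-156200911, minus strand: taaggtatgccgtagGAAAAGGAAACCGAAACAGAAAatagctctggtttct
Rsad2, chr12:26456548-26456587, minus strand: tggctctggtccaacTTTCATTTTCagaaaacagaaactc
Ifit3, chr19:34583358-34583431, plus strand: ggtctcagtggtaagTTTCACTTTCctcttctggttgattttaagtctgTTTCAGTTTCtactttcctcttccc
Ifit3b, chr19:34607754-34607827, plus strand: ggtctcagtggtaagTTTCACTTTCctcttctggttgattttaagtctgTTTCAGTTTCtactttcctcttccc
Ifit1, chr19:34640770-34640828, plus strand: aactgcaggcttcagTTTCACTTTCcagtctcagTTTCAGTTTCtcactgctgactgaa

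The Isg15 promoter held 3 overlapping matches that ran from 78 to 57 bases before the start site. Ifit3, Ifit3b and Ifit1 each held 2 matches, and Rsad2 held 1 match, from 120 to 111 bases before its start. The printed stretches of Ifit3 and Ifit3b had the same letters, and the bases before the start sites of these 2 genes were 99.1% identical over 218 aligned bases. The letters were not found in the windows of Ifi44, Herc6 and Cmpk2 or in either of the 2 windows of Ifit2. A match is a description of the letters and does not show binding.

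**Figure D1:**
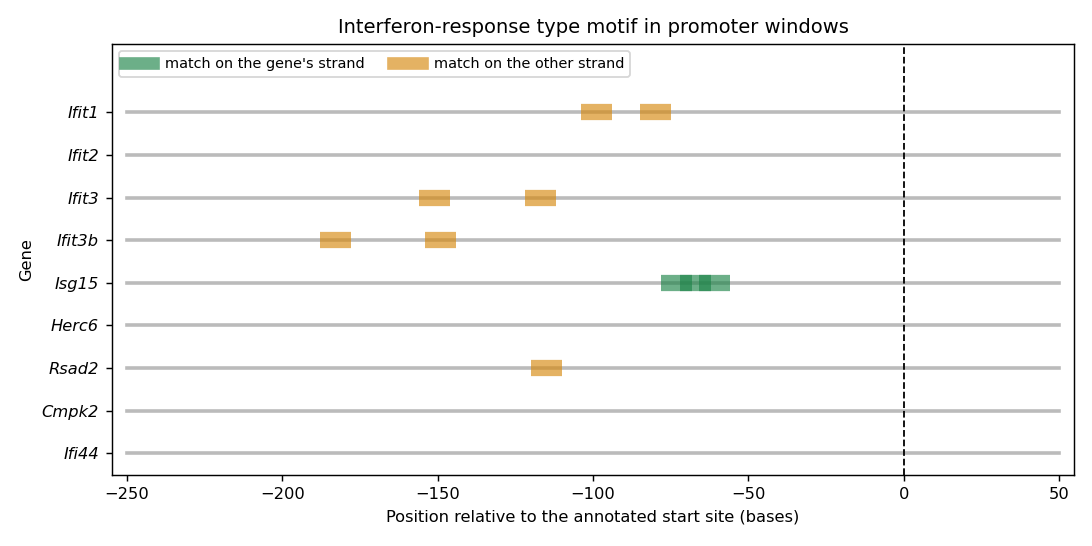
Matches of the 10-letter motif in the RefSeq promoter windows, with the distance from the start site in bases on the horizontal axis and 1 line for each gene. Matches lie between 188 and 57 bases before the start site in Isg15, Rsad2, Ifit3, Ifit3b and Ifit1, and the windows of Ifi44, Herc6, Cmpk2 and Ifit2 hold none.

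Library totals ran from 23354461 to 55094630 counts. Replicates 1 and 2 of treated 4T1 differed far less than the other 17 pairs within groups. Over genes with 4 to 30 counts in a pair, the chi-square per gene was 1.10 for them and 2.04 to 2.22 for the others. Their mean was therefore used as 1 sample, and that group has n = 2. The 7 epithelial markers together reached 76218 to 77204 normalized counts in untreated 4T1, 50709.9 to 53119 in untreated 4T1R1 and 58991 to 60137 in untreated 4T1R2. Of 16 markers of leukocytes, macrophages, fibroblasts and endothelial cells, 14 had at most 39 counts in every library. The exceptions were Cd68, with 114 to 242 counts, and Pdgfra, with 338 to 1025 counts. The library names of 4T1R1 form a number run separate from that of 4T1 and 4T1R2, and what this run marks is not given. The population and that run cannot be told apart wherever 4T1R1 is set beside either of the others.

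Levels are given as normalized counts, which are counts divided by the TMM-scaled size of the library and multiplied by the mean of that size, and as mean ± SD over libraries. Between genes, levels were compared as normalized counts per kb of exon. On that scale Isg15 stood at 121 and Ifit2 at 111 in untreated 4T1. The other 8 genes lay between 8.82 for Ifit3b and 33.6 for Ifit1. In untreated 4T1R2 the order was different. Isg15 was at 506 normalized counts per kb, Ifit1 at 223, Ifit2 at 137 and Rsad2 at 125, and Ifit3b was again the lowest at 33.1. These levels depend on the length used, since the mean transcript length in place of all exons put untreated 4T1 at 193 normalized counts per kb for Ifit2 and 138 for Herc6, both above Isg15.

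Before any treatment, all 10 genes were higher in both resistant populations than in 4T1, and no library of 4T1R1 or 4T1R2 overlapped with the libraries of untreated 4T1 for any of them. All 10 were called higher in 4T1R1, where 25.2% of all genes tested were called higher, and all 10 in 4T1R2, where the background was 25.6%. Every library of the resistant population lay above every 4T1 library for 27.7% of all genes in 4T1R1 and 28% in 4T1R2. The median log2 fold change over the 10 genes was 1.80 in 4T1R1 and 2.27 in 4T1R2, beside 0.0075 and 0.0068 over all genes tested. Both comparisons used the same 4T1 libraries. In bulk RNA, a larger number of cells that express a gene and more RNA in each cell cannot be told apart.

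Ifit1, which binds RNA caps that lack methylation, had 87.0, 79.1 and 101 normalized counts in the untreated 4T1 libraries, 425, 392 and 389 in 4T1R1, and 629, 579 and 572 in 4T1R2. The 3 groups did not overlap, with 4T1 lowest and 4T1R2 highest, and the means were 89.2 ± 11.3, 402 ± 19.8 and 593 ± 31.2 (SD, n = 3). The log2 fold change against 4T1 was 2.17 ± 0.13 (SE) in 4T1R1 (edgeR quasi-likelihood test, Benjamini-Hochberg adjusted p = 2.56e-18) and 2.73 ± 0.12 in 4T1R2 (edgeR adjusted p = 4.14e-22). That is a 4.49-fold and a 6.64-fold higher level.

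Ifit2 differed least. Its libraries had 422, 438 and 448 normalized counts in 4T1, 607, 659 and 707 in 4T1R1, and 507, 513 and 594 in 4T1R2. Here 4T1R1 and not 4T1R2 was the highest group, again without overlap. The log2 fold change was 0.59 ± 0.08 (SE) in 4T1R1 (edgeR adjusted p = 6.36e-08) and 0.30 ± 0.08 in 4T1R2 (edgeR adjusted p = 0.00261).

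Ifit3 and Ifit3b had far lower counts and nearly the same values as each other. Ifit3 had 16.6, 19.2 and 24.4 normalized counts in 4T1, 55.5, 55.3 and 51.1 in 4T1R1, and 65.2, 60.0 and 71.3 in 4T1R2. Ifit3b had 14.5, 26.7 and 11.7 in 4T1, 54.6, 56.3 and 55.7 in 4T1R1, and 55.6, 73.0 and 70.2 in 4T1R2. Both resistant populations lay above 4T1 in every library. The log2 fold changes of Ifit3 were 1.42 ± 0.27 (SE) and 1.70 ± 0.27 in 4T1R1 and 4T1R2, and those of Ifit3b were 1.66 ± 0.28 and 1.91 ± 0.28 (edgeR adjusted p at most 2.24e-05). The related row Ifit1bl2 had a mean of 2.83 ± 3.27 normalized counts in 4T1, 21.8 ± 8.34 in 4T1R1 and 21.3 ± 0.642 in 4T1R2, with log2 fold changes of 2.93 and 2.90 (edgeR adjusted p = 8.66e-05 and 0.00012). Ifit1bl1 stayed below 8 normalized counts in every library.

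In the ISG15 system, the tag itself, the protease and the ligase all rose. Isg15 had 89.1, 85.5 and 100.4 normalized counts in 4T1, 269, 259.7 and 280.4 in 4T1R1, and 409, 363 and 377 in 4T1R2. The 3 groups did not overlap, and the fold change was 2.94 in 4T1R1 (log2 1.55 ± 0.12 SE, edgeR adjusted p = 4.3e-14) and 4.17 in 4T1R2 (log2 2.06 ± 0.12 SE, edgeR adjusted p = 3.03e-18).

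Usp18, the ISG15 protease, had 36.3, 43.8 and 30.2 normalized counts in 4T1, 288, 242 and 239.6 in 4T1R1, and 255, 249 and 258 in 4T1R2. The resistant populations overlapped with each other and lay far above 4T1. Its log2 fold change, the highest of the 10 genes in 4T1R1, was 2.81 ± 0.15 (SE) there (edgeR adjusted p = 9.78e-20), and it was 2.79 ± 0.15 in 4T1R2 (edgeR adjusted p = 1.82e-19). Herc6, the ligase, had 322, 259 and 245 normalized counts in 4T1, 526, 537 and 562 in 4T1R1, and 598, 558 and 596 in 4T1R2. Neither resistant population overlapped with 4T1, and the log2 fold changes of 0.98 ± 0.08 (SE, edgeR adjusted p = 5.37e-13) and 1.09 ± 0.09 (SE, edgeR adjusted p = 2.71e-14) were close to a 2-fold level.

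Among the other effectors, Rsad2 had 61.1, 59.8 and 66.3 normalized counts in 4T1, 249, 245 and 292 in 4T1R1, and 513, 559 and 554 in 4T1R2. The groups were well separated in that order, and the 8.64-fold level in 4T1R2 was the largest of the 10 genes (log2 3.11 ± 0.13 SE, edgeR adjusted p = 1.01e-22). In 4T1R1 the log2 fold change of Rsad2 was 2.07 ± 0.14 (SE, edgeR adjusted p = 7.52e-16).

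Its neighbour Cmpk2 had 97.4, 70.5 and 89.7 normalized counts in 4T1, 349, 354 and 293 in 4T1R1, and 475, 455 and 513 in 4T1R2, in the same order without overlap. The log2 fold changes were 1.94 ± 0.13 (SE, edgeR adjusted p = 5.37e-16) and 2.48 ± 0.13 (SE, edgeR adjusted p = 8.5e-20). Ifi44 had 104, 94.0 and 80.0 normalized counts in 4T1, 604, 595 and 635 in 4T1R1, and 728, 664 and 643 in 4T1R2. Both resistant groups were more than 6-fold above 4T1, with log2 fold changes of 2.73 ± 0.11 (SE, edgeR adjusted p = 4.96e-24) and 2.88 ± 0.11 (SE, edgeR adjusted p = 8.63e-25). Its neighbour Ifi44l was listed at 0 in the 3 untreated 4T1 libraries and reached 14.9 normalized counts at most in untreated 4T1R1 and 5.75 in untreated 4T1R2.

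**Figure D2:**
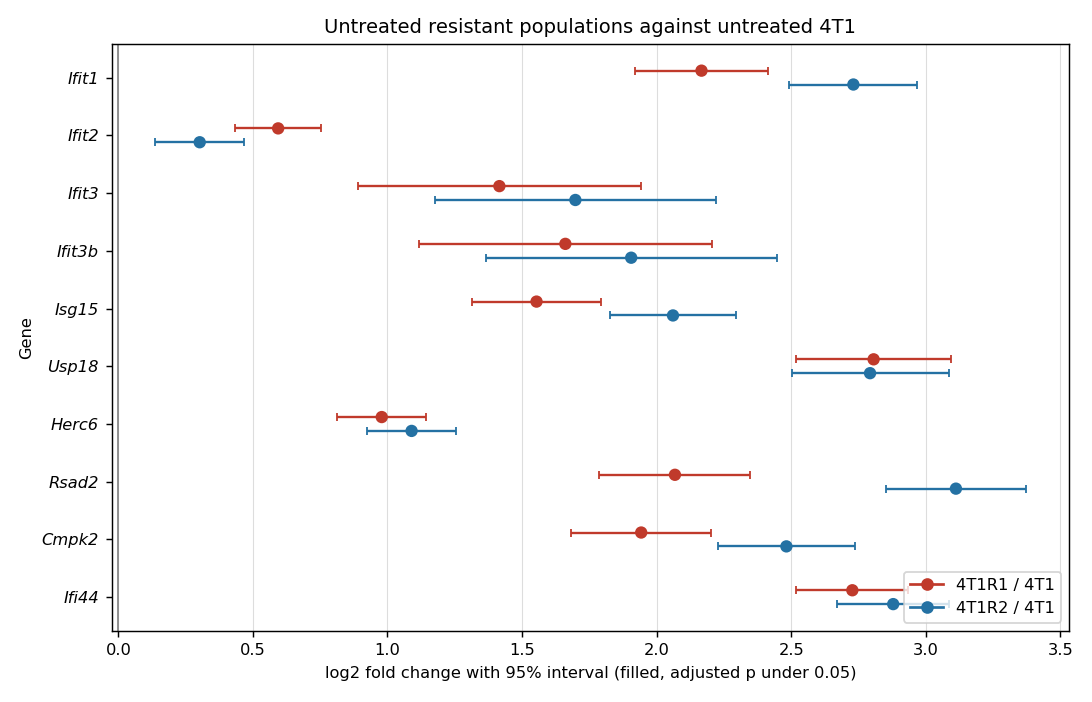
Log2 fold change of the 10 genes in untreated 4T1R1 and 4T1R2 against untreated 4T1, with bars for the 95% interval of the edgeR fit. All intervals lie above 0, and the fold changes run from 0.30 for Ifit2 to 3.11 for Rsad2, both in 4T1R2.

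The summed counts of the macrophage markers were 128 to 187 normalized counts in untreated 4T1, 223 to 224 in 4T1R1 and 203 to 250 in 4T1R2, and Cd68, which many cell types express, held most of them. Its more specific members Adgre1, Itgam and Csf1r had at most 6, 12 and 39 counts in any library. The leukocyte markers summed to 10.7 to 19.5 normalized counts in untreated 4T1, 13 to 19.5 in 4T1R1 and 24.8 to 28.1 in 4T1R2, and Ptprc had 4 to 19 counts. The fibroblast markers, nearly all Pdgfra, summed to 677 to 747, 823 to 890 and 916 to 1034 normalized counts in the same order, and the endothelial markers to at most 17.5. The part of these markers, and of the lower epithelial sum, in the levels of the interferon effectors was not tested.

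Between the 2 resistant populations, differences in both directions were called in these genes, as they were over all genes tested. The 2 populations also differ in the run of library names. In untreated 4T1R2 against untreated 4T1R1, 4 of the 10 genes were called higher, beside 19.7% of all genes tested, and 1 was called lower, beside 19% of all genes. Groups did not overlap for 7 of the 10 genes, against 46.1% of all genes. Rsad2 differed most, at 2.06-fold (log2 1.04 ± 0.10 SE, edgeR adjusted p = 8.33e-11), followed by Ifit1 (0.56 ± 0.10, edgeR adjusted p = 7e-06), Cmpk2 (0.54 ± 0.11, edgeR adjusted p = 6.13e-05) and Isg15 (0.51 ± 0.10, edgeR adjusted p = 0.000101). Ifit2 was lower in 4T1R2 by 0.29 on the log2 scale (edgeR adjusted p = 0.00354). For the remaining genes no difference was called. The 95% intervals of the log2 difference were -0.23 to 0.20 for Usp18, -0.04 to 0.26 for Herc6 and -0.01 to 0.31 for Ifi44, and the wider intervals of the low genes were -0.16 to 0.73 for Ifit3 and -0.20 to 0.69 for Ifit3b.

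In 4T1, exposure to 17-DMAG was followed by higher levels of 9 of the 10 genes, against 18.4% of all genes tested called higher. The same 9 genes lay above every untreated library in both treated samples, as did 28.9% of all genes. Rsad2 rose from 62.4 ± 3.43 (SD, n = 3) to 287 in the mean of replicates 1 and 2 and 370.5 in replicate 3, which is 5.20-fold (log2 2.38 ± 0.15 SE, edgeR adjusted p = 7.34e-17). Ifit1 rose from 89.2 ± 11.3 (SD, n = 3) to 322 and 403 normalized counts (log2 2.01 ± 0.14 SE, edgeR adjusted p = 1.05e-15). For both genes the treated samples stood more than 3-fold above every untreated library.

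Cmpk2 reached 183 and 258 normalized counts, a log2 rise of 1.34 ± 0.15 (SE, edgeR adjusted p = 1.74e-09). Usp18 reached 79.3 and 88.6, a rise of 1.19 ± 0.19 (edgeR adjusted p = 1.87e-06). Ifit3b, at 39 and 41.0, and Ifit3, at 41.4 and 45.4, rose by 1.19 ± 0.32 and 1.10 ± 0.30 (edgeR adjusted p = 0.00247 and 0.00338). These 4 genes, together with Ifit1 and Rsad2, were at least 2-fold higher with the drug.

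The remaining rises in 4T1 were smaller. Ifi44 had 126 and 164 normalized counts (log2 0.63 ± 0.14 SE, edgeR adjusted p = 0.000419) and Herc6 415 and 419 (0.60 ± 0.10, edgeR adjusted p = 2.08e-06). Isg15 had 121 and 135 (0.47 ± 0.15, edgeR adjusted p = 0.0113). The call for Isg15 was lost without replicate 3 of treated 4T1 (0.39, edgeR adjusted p = 0.12), which leaves that group 1 sample assumed to vary like the other groups, and with libraries scaled by total counts alone (0.35, edgeR adjusted p = 0.0518). Ifit2, with 442 and 451 normalized counts against 422 to 448 untreated, overlapped with the untreated libraries and was not called (log2 0.03, 95% interval -0.15 to 0.22, edgeR adjusted p = 0.824). Scaling by total counts alone moved the median of all genes in this comparison to -0.11 on the log2 scale and the calls over all genes from 2490 higher and 2423 lower to 1193 and 4322. The 8 genes other than Ifit2 and Isg15 were still called higher under it. Between unexposed and exposed 4T1 the macrophage markers went from 128 to 187 normalized counts to 170 to 202, the fibroblast markers from 677 to 747 to 385 to 405, and the leukocyte markers from 10.7 to 19.5 to 9.66 to 10.8. The epithelial markers went from 76218 to 77204 to 75072 to 75396, without overlap. The part of these markers in the response was not tested.

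The mean of exposed 4T1 was below that of both unexposed resistant populations for all of these genes but Rsad2, which was above 4T1R1. It ranged from 23.8% of untreated 4T1R1 for Ifi44 to 125% for Rsad2, with a median of 70.0%. Relative to untreated 4T1R2, it ranged from 21.4% for Ifi44 to 83.0% for Ifit2, with a median of 60.5%. Every one of the 12 resistant libraries, exposed or not, lay above both samples of exposed 4T1 for 8 of the 10 genes, the exceptions being Ifit1 and Rsad2, and this held for 19% of all genes tested. For Ifit1 the range of exposed 4T1, 322 to 403 normalized counts, overlapped with that of untreated 4T1R1. For Rsad2 it overlapped likewise, at 287 to 370.5 against 245 to 292. These are descriptions of levels, and no test was made between exposed 4T1 and the resistant populations.

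**Figure D3:**
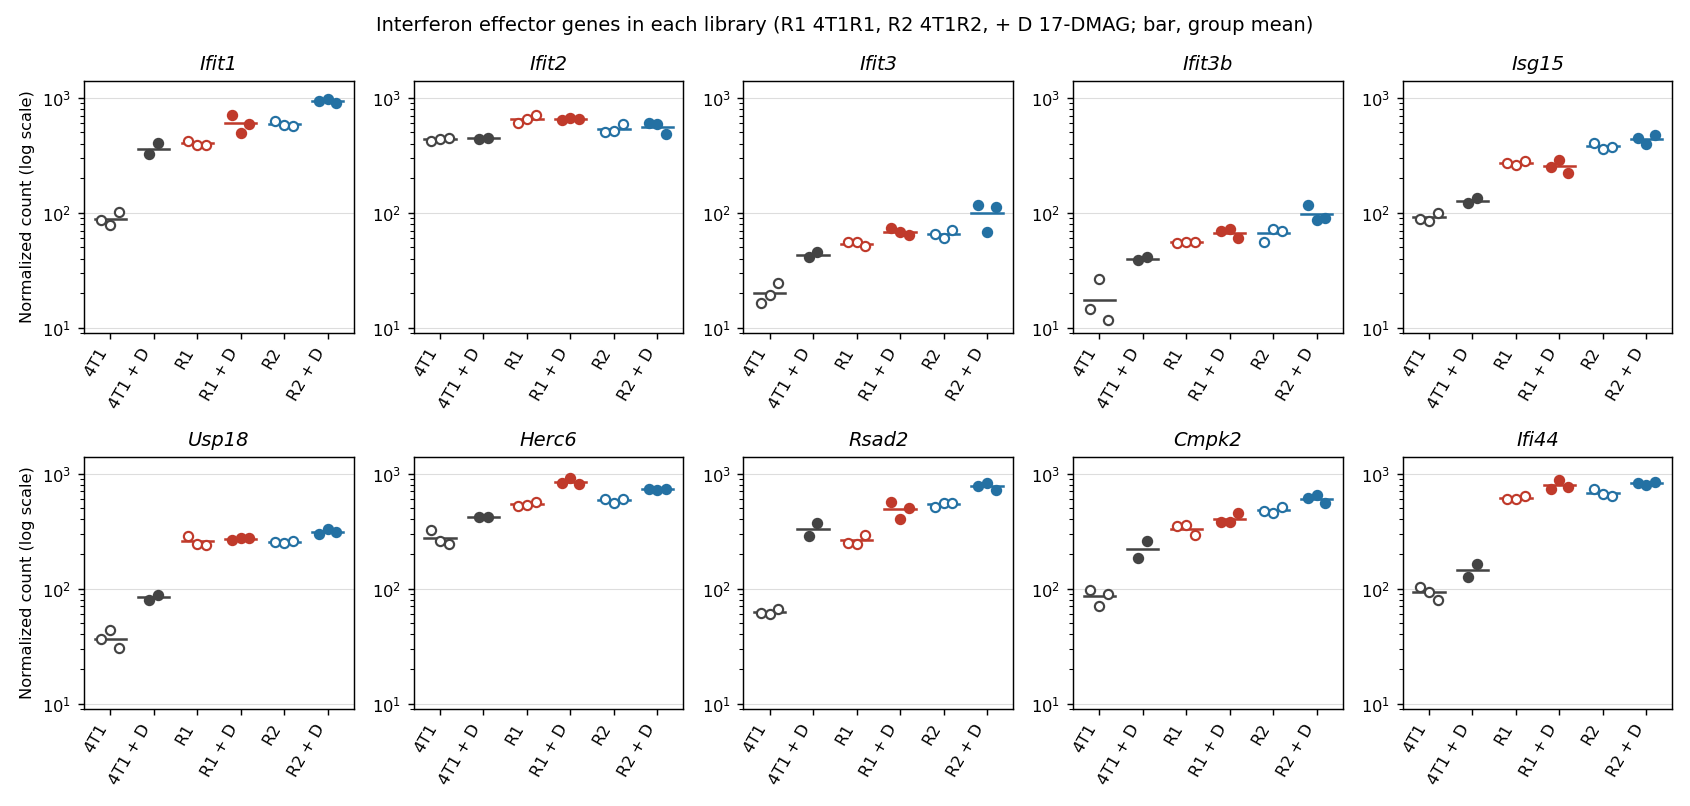
Normalized counts of the 10 genes in every sample of the 6 groups on a log axis, with bars at the group means (R1 is 4T1R1, R2 is 4T1R2, and + D marks 17-DMAG). Untreated 4T1 is the lowest group for each gene, and the resistant samples lie above both exposed 4T1 samples for all but Ifit1 and Rsad2.

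In the resistant populations, fewer of the 10 genes were called with 17-DMAG. In 4T1R1, 5 of the 10 genes were called higher, against 13.9% of all genes tested. Exposed libraries lay above all unexposed ones for 7 of the 10 genes, against 18.8% of all genes. In 4T1R2, 5 of the 10 were called higher, against 6.18% of all genes, and the exposed libraries of 7 lay above all unexposed ones, against 13.9%. The genes called were the same in both populations, namely Ifit1, Herc6, Rsad2, Cmpk2 and Ifi44. Between unexposed and exposed libraries the fibroblast markers went from 823 to 890 normalized counts to 702 to 757 in 4T1R1 and from 916 to 1034 to 793 to 898 in 4T1R2, without overlap in either. The leukocyte markers went from 24.8 to 28.1 to 18.5 to 24.2 in 4T1R2, also without overlap, and the epithelial markers there from 58991 to 60137 to 60653 to 62306. The macrophage and endothelial markers overlapped in both populations, and the part of these markers in the responses was not tested.

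Rsad2 went from 262 ± 25.7 (SD, n = 3) normalized counts in 4T1R1 to 566, 405 and 501. In 4T1R2 it went from 542 ± 25.4 to 781, 825 and 713. No exposed library overlapped with the unexposed ones, and the log2 rises were 0.90 ± 0.10 (SE, edgeR adjusted p = 7.59e-09) in 4T1R1 and 0.51 ± 0.09 (SE, edgeR adjusted p = 0.000133) in 4T1R2. Ifit1 went from 402 ± 19.8 to 711, 495 and 598 in 4T1R1, and from 593 ± 31.2 to 948, 969 and 904 in 4T1R2. The log2 rises of Ifit1 were 0.58 ± 0.09 (SE, edgeR adjusted p = 7.07e-06) and 0.66 ± 0.09 (SE, edgeR adjusted p = 7.6e-07). Exposed 4T1R2 was the highest of the 6 groups for both genes and overlapped with no other.

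Herc6 reached 833, 909.9 and 803 normalized counts in exposed 4T1R1 and 737, 712 and 732 in exposed 4T1R2, in both cases above all unexposed libraries. Its log2 rises were 0.65 ± 0.07 (SE, edgeR adjusted p = 7.59e-09) and 0.31 ± 0.08 (SE, edgeR adjusted p = 0.0041), and exposed 4T1R1 was its highest group. Ifi44 had 728, 887 and 768 normalized counts in exposed 4T1R1 and 827, 797 and 844 in exposed 4T1R2. Its rises were 0.37 ± 0.08 (SE, edgeR adjusted p = 0.00031) and 0.27 ± 0.08 (SE, edgeR adjusted p = 0.0167), and the second call was lost when replicate 1 or 3 of exposed or replicate 2 or 3 of unexposed 4T1R2 was left out (0.24 to 0.27). Cmpk2 had 379.6, 381 and 454 normalized counts in exposed 4T1R1 and 611, 655 and 553 in exposed 4T1R2. Its rises of 0.29 ± 0.11 (SE, edgeR adjusted p = 0.0384) and 0.33 ± 0.10 (SE, edgeR adjusted p = 0.0215) were the least firm. The call in 4T1R1 was lost without replicate 3 of either group (0.20 in both cases), and the call in 4T1R2 was lost without replicate 1 or 2 of either group (0.27 to 0.33) and under total counts alone (0.29). Without replicate 1 of exposed or replicate 2 of unexposed 4T1R2, 3 of the 10 genes were called in 4T1R2.

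The other 5 genes were not called in either resistant population. Isg15 had 251, 289 and 224 normalized counts in exposed 4T1R1 and 450.3, 397 and 473 in exposed 4T1R2, overlapping with the unexposed libraries in both. Its 95% intervals were -0.29 to 0.12 and 0.01 to 0.39 on the log2 scale. Usp18 had 263, 274 and 274 in exposed 4T1R1 and 297, 332 and 310.0 in exposed 4T1R2, with log2 differences of 0.07 (95% interval -0.14 to 0.29) and 0.30 (0.09 to 0.51, edgeR adjusted p = 0.0653). Only in 4T1R2 did its exposed libraries all lie above the unexposed ones.

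Ifit2 had 640.4, 665 and 656 normalized counts in exposed 4T1R1 and 603, 591 and 482 in exposed 4T1R2, both overlapping with the unexposed libraries, with intervals of -0.16 to 0.15 and -0.10 to 0.22. Ifit3 had 73.8, 67.7 and 64.2 in exposed 4T1R1 and 117, 67.5 and 112 in exposed 4T1R2. Without the library at 67.5, replicate 2, the difference in 4T1R2 became 0.80 and was called (edgeR adjusted p = 0.0152), against 0.59 (edgeR adjusted p = 0.0703) with it. Ifit3b, at 69.0, 71.9 and 60.9 and at 117, 86.6 and 89.4 normalized counts, lay above the unexposed libraries in both populations, with log2 differences of 0.28 (95% interval -0.16 to 0.72) and 0.57 (0.15 to 0.99, edgeR adjusted p = 0.0861).

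**Figure D4:**
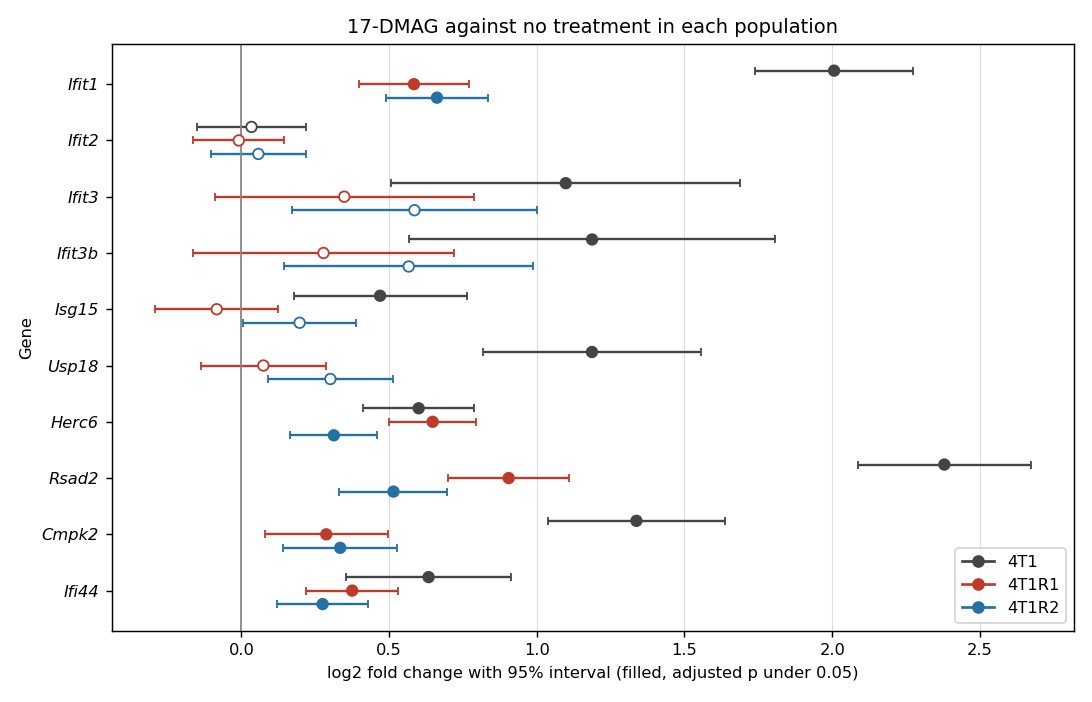
Log2 fold change with 17-DMAG against untreated for the 10 genes in 4T1, 4T1R1 and 4T1R2, with bars for the 95% interval of the edgeR fit. The rise in 4T1 reaches 2.38 for Rsad2 and 2.01 for Ifit1, and no rise in a resistant population exceeds 0.90.

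Whether the responses differed was tested with an interaction term, which compares log2 ratios to the untreated level of each population and not differences in counts. The response was lower in 4T1R1 than in 4T1 for 5 of the 10 genes, against 9.08% of all genes tested, and lower in 4T1R2 than in 4T1 for 4 of the 10, against 8.16%. None of the 10 was called with a higher response in a resistant population, beside 9.16% of all genes for 4T1R1 and 9.62% for 4T1R2. Both differences use the same 4T1 libraries, in which the exposed group has 2 samples. Rsad2 had the largest difference, at -1.47 ± 0.19 (SE, log2) for 4T1R1 (edgeR adjusted p = 9.42e-08) and -1.86 ± 0.18 for 4T1R2 (edgeR adjusted p = 8.52e-11). For Ifit1 the differences were -1.42 ± 0.17 (edgeR adjusted p = 2.27e-08) and -1.34 ± 0.17 (edgeR adjusted p = 3.5e-08), for Usp18 -1.11 ± 0.22 (edgeR adjusted p = 0.00019) and -0.89 ± 0.22 (edgeR adjusted p = 0.00261), and for Cmpk2 -1.05 ± 0.19 (edgeR adjusted p = 5e-05) and -1.0 ± 0.18 (edgeR adjusted p = 6.03e-05).

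Isg15 was called for 4T1R1 (-0.55 ± 0.18 SE, edgeR adjusted p = 0.0289) and not for 4T1R2 (-0.27, 95% interval -0.62 to 0.08). The call for 4T1R1 was lost under total counts alone (-0.40) and in 6 cases in which 1 library was left out. These were replicate 1 or 3 of exposed 4T1R1, replicate 3 of unexposed 4T1R1, replicate 3 of exposed 4T1 (again with 1 sample left in that group) and replicate 1 or 2 of unexposed 4T1 (-0.47 to -0.54). No difference was called for Ifit2, Ifit3, Ifit3b, Herc6 and Ifi44. For Herc6 the difference was 0.05 (95% interval -0.19 to 0.29) in 4T1R1 and -0.29 (-0.53 to -0.05) in 4T1R2. The intervals were -0.58 to 0.06 and -0.68 to -0.04 for Ifi44, -1.49 to -0.01 and -1.24 to 0.21 for Ifit3, -1.67 to -0.15 and -1.37 to 0.13 for Ifit3b, and -0.28 to 0.20 and -0.22 to 0.27 for Ifit2. Under total counts alone the median difference of all genes moved to 0.15 for 4T1R1 and the calls over all genes from 1237 higher and 1227 lower to 3536 and 419. The responses of Ifit1, Usp18, Rsad2 and Cmpk2 were still called lower in 4T1R1 under it.

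The order of the 6 groups by mean level differed between genes. For Ifit1 it ran from 4T1 through exposed 4T1, 4T1R1, 4T1R2 and exposed 4T1R1 to exposed 4T1R2, where exposed 4T1 overlapped with 4T1R1 and 4T1R2 with exposed 4T1R1. Rsad2 had the order 4T1, 4T1R1, exposed 4T1, exposed 4T1R1, 4T1R2 and exposed 4T1R2, with overlap between 4T1R1 and exposed 4T1 and between exposed 4T1R1 and 4T1R2. For Cmpk2 no neighbouring groups overlapped, from 4T1 through exposed 4T1, 4T1R1, exposed 4T1R1 and 4T1R2 to exposed 4T1R2. For Ifi44 and Usp18 the 4 resistant groups were close together and the largest step was between exposed 4T1 and the first of them, from 164 to 595 normalized counts for Ifi44 and from 88.6 to 249 for Usp18. For Ifit2 and Isg15 all groups that overlapped were exposed and unexposed libraries of the same population. That was so in all 3 populations for Ifit2, and in 4T1R1 and 4T1R2 for Isg15, which did not overlap in 4T1 (85.5 to 100.4 normalized counts unexposed and 121 to 135 exposed).

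Of 89 other genes of the interferon pathway, a list of ligands, receptors, kinases, transcription factors, ISG15 conjugation enzymes, sensors, feedback genes and further interferon-stimulated genes, 71 passed the filter on low counts. In untreated 4T1R1 against 4T1, 61 of them were called higher and 2 lower, beside 25.2% and 27.5% of all genes, with a median log2 fold change of 0.85. In 4T1R2 against 4T1 56 were higher and 3 lower, beside 25.6% and 26.9% of all genes, with a median of 0.90. Of the further interferon-stimulated genes, 39 of 39 were higher in 4T1R1 (median 1.25) and 38 of 39 in 4T1R2 (median 1.2), and the 3 ISG15 conjugation genes were higher in both. Irf8 and Socs1 were lower in both populations, and Jak2 also in 4T1R2. These 3 names were singled out after their values were seen.

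The interferon genes themselves were barely detected. Of 20 ligand genes, 18 did not pass the filter, 13 had 0 counts in all 18 libraries, and no untested one exceeded 5 counts in a library. Ifnb1, the gene of interferon beta, had at most 4 counts in a library and was listed at 0 in all 4T1 libraries. Such counts limit what was read and do not show that the genes were silent.

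The receptor chains differed from each other. Ifnar1 had a mean of 2011 ± 50.5 (SD, n = 3) normalized counts in untreated 4T1 and was not called in 4T1R1 (log2 0.06) or 4T1R2 (-0.04). Ifnar2 went from 670.0 ± 31.5 in 4T1 to 1456 ± 49.5 in 4T1R1 and 1338 ± 6.55 in 4T1R2, with log2 fold changes of 1.12 and 1.00 (edgeR adjusted p = 6.4e-20 and 4.24e-18). Stat2 and Irf9 rose in both populations. Stat2 was higher by 0.69 and 0.94 on the log2 scale in 4T1R1 and 4T1R2, and Irf9 by 0.63 and 0.90 (edgeR adjusted p at most 7.07e-09). Irf7, a factor that is itself interferon-induced, went from 234 ± 16.0 to 763 ± 47.8 and 775 ± 43.9 normalized counts (log2 1.70 and 1.73). The enzymes that act before Herc6 also rose. Ube2l6, the E2, had log2 fold changes of 1.90 and 1.94, and Uba7, the E1, of 1.37 and 0.64 (edgeR adjusted p = 2.13e-09 and 0.00207).

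With 17-DMAG in 4T1, 22 of the 71 pathway genes were called higher and 11 lower, beside 18.4% and 17.9% of all genes. Their median was 0.05 on the log2 scale, beside the median of 1.14 over the 10 effectors. Of the 39 further interferon-stimulated genes among the 71, 16 were called higher and 2 lower, with a median of 0.17. Irf9 rose by 0.30 (edgeR adjusted p = 0.00707), and Stat2 was at 0.09 and not called. Ifnar1 fell by 0.23 on the log2 scale (edgeR adjusted p = 0.000282). Ifnar2 (-0.02), Irf7 (-0.04), Uba7 (-0.01) and Ube2l6 (-0.04) were not called. In the resistant populations, 14 of the 71 were higher and 14 lower in 4T1R1, beside 13.9% and 14.3% of all genes. In 4T1R2 5 were higher and 1 was lower, beside 6.18% and 4.35%. In 4T1R1, Irf7 fell by 0.31 (edgeR adjusted p = 0.00122), Ifnar2 fell by 0.22 (edgeR adjusted p = 0.00218) and Ifnar1 fell by 0.14 (edgeR adjusted p = 0.0164), while Stat2 and Irf9 were not called in either population. Total counts alone raised the number of pathway genes called lower in exposed 4T1 from 11 to 18.

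The difference of response was lower for 11 of the 71 and higher for 3 in 4T1R1, beside 9.08% and 9.16% of all genes. In 4T1R2 it was lower for 11 and higher for 6, beside 8.16% and 9.62%. Among the 39 further interferon-stimulated genes, 10 were lower and 0 higher in 4T1R1, and 8 were lower and 1 higher in 4T1R2. None of Stat2, Irf9, Irf7, Ifnar1, Ifnar2, Uba7 and Ube2l6 was among those called in either population. Under total counts alone the counts over the 71 genes became 3 lower and 11 higher in 4T1R1, and 6 were lower in 4T1R2.

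**Figure D5:**
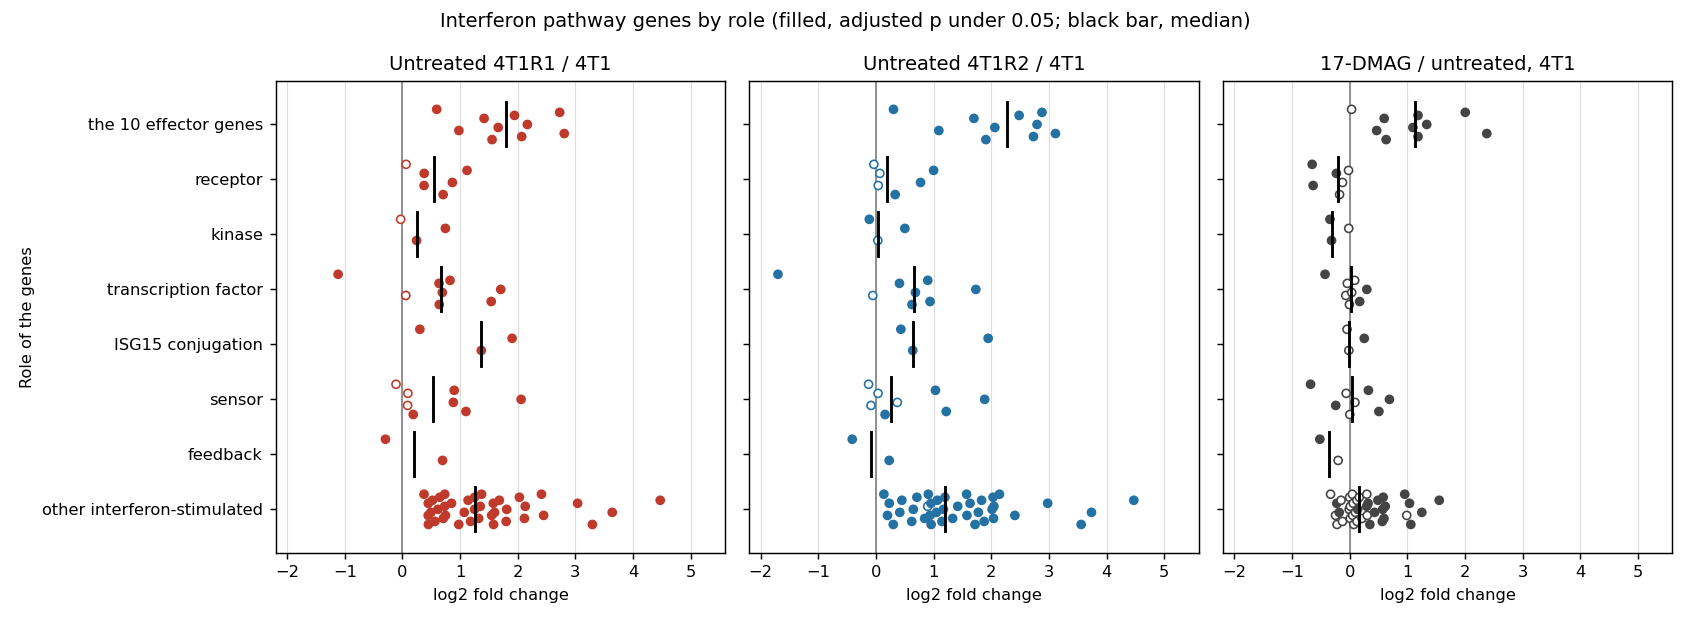
Log2 fold changes of the 10 effectors and of the tested pathway genes, grouped by role, in untreated 4T1R1 and 4T1R2 against 4T1 and with 17-DMAG in 4T1. Each point is a gene, filled where the adjusted p is under 0.05, bars are medians, and the ligands are not drawn. The further interferon-stimulated genes have medians of 1.25 and 1.2 in the resistant populations and 0.17 with the drug in 4T1. The pathway genes as a whole have medians of 0.85, 0.90 and 0.05 in the same order.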

How the data were processed

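Stranded libraries were made from rRNA-depleted total RNA of 18 samples. Per the labels and the study's methods, the authors aligned reads to mm10/GRCm38 with STAR, counted them per gene with featureCounts (Subread 1.6.2 and bcl2fastq 2.20 are named in the submitters' processing notes) and deposited whole-number counts without normalization. Counting of strand and of reads with several matches is not given in the sources used here. Of counts from 1 to 12, 65.6% to 70.8% were even in each library, so a count was probably a read and not a pair. Intervals come from the fit.

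Counts were fitted with edgeR 4.0.16 in R 4.3.3 (filterByExpr with a minimum count of 10, TMM scaling, 6 group means without intercept, 17 samples after replicates 1 and 2 of treated 4T1 were averaged). The quasi-likelihood test was adjusted by the Benjamini-Hochberg method over 13507 genes with a threshold of 0.05. In all 8 comparisons all 10 genes were named. From the pathway list Stat2, Irf9, Irf7, Ifnb1, Ifnar1, Ifnar2, Uba7 and Ube2l6 were named by rule, with the further IFIT and IFI44 rows and chromosomal neighbours. The genes, lists and tests were chosen with earlier results of these data known. The fitting code also had to recover changes put into simulated counts, which was done only for untreated 4T1R1 against untreated 4T1.

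The results were recomputed under RLE scaling, total counts alone, no filter, at least 10 counts in every library, DESeq2 1.42.0, only the groups compared, 18 separate libraries, the replicate number as a block, Rn45s (9.54% to 15.6% of counts) left out, each library left out, and mean transcript length. Motif and window searches used Python 3.11.15 and figures matplotlib 3.10.9. Results of withheld items are not reported here. Transposable element data and the study's other experiments were not analysed here.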

Additional observations from a re-analysis of the deposited data

Results flagged for a closer look

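The response to 17-DMAG differed between a resistant population and 4T1, by the interaction term of the edgeR fit, for 9 gene and population pairs. For 4T1R1 against 4T1 the differences on the log2 scale were -1.47 for Rsad2, -1.42 for Ifit1, -1.11 for Usp18, -1.05 for Cmpk2 and -0.55 for Isg15. For 4T1R2 against 4T1 they were -1.86 for Rsad2, -1.34 for Ifit1, -1.0 for Cmpk2 and -0.89 for Usp18. In each case the response, as a log2 ratio to the untreated level, was lower in the resistant population. The 4T1 libraries were shared between both sets. Untreated levels differed between the populations. Mean Ifit1 went from 89.2 to 363 normalized counts in 4T1 and from 593 to 941 in 4T1R2. Mean Rsad2 went from 62.4 to 329 in 4T1 and from 542 to 773 in 4T1R2. Differences of response in counts were not tested.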

How the results depend on the processing

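Of 1290 log2 fold changes of the 10 genes under alternatives, 1252 kept their direction and their side of the threshold, 20 lost a call, 4 gained one, and 14 changed sign, of which 0 were called in either fit. Under total counts alone Ifit2 changed sign with 17-DMAG in 4T1 (-0.082) and 4T1R1 (0.025) and in the 4T1R1 difference (0.11). With 1 library left out, values that crossed 0 ranged from -0.062 to 0.079 for Usp18 in untreated 4T1R2 against 4T1R1, from -0.064 to 0.047 for Ifit2 in exposed 4T1R1, from -0.098 to 0.013 for the 4T1R1 difference and from -0.034 to 0.12 for the 4T1R2 difference of Ifit2, and from -0.081 to 0.13 for the 4T1R1 difference of Herc6. In the comparisons of untreated populations no call on the 10 genes changed under any of them. The cause of the changes was not tested. The number of the 10 genes called higher with 17-DMAG in 4T1R2 was 3 to 5 with 1 library left out, and 3 without replicate 1 of exposed or replicate 2 of unexposed 4T1R2. Calls gained with 1 library left out were Ifit3 with 17-DMAG in 4T1R2 (0.80, without treated replicate 2), Ifit3b for the 4T1R1 difference (-1.33, without untreated 4T1 replicate 2), and for the 4T1R2 difference Herc6 (-0.42, without untreated 4T1 replicate 1) and Ifi44 (-0.55, without the mean of treated 4T1 replicates 1 and 2, which leaves 1 sample assumed to vary like the other groups, as leaving out treated 4T1 replicate 3 does throughout).

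Counts over the 71 pathway genes moved more. Under total counts alone 1 was lower in untreated 4T1R1 against 4T1, 18 in exposed 4T1 and 6 in exposed 4T1R2, and for the difference of response 11 were higher and 3 lower in 4T1R1 and 6 lower in 4T1R2. With only the groups compared, 1 was lower in 4T1R1 against 4T1. In exposed 4T1R2, no filter gave 9 higher and 0 lower, 18 separate libraries gave 8 higher, and leaving out Rn45s gave 0 lower. With 18 separate libraries 5 had a higher response in 4T1R1 than in 4T1. With 1 library left out, the number lower ranged from 1 to 2 in 4T1R1 against 4T1 (1 without untreated 4T1R1 replicate 3 or untreated 4T1 replicate 2 or 3), from 9 to 15 in exposed 4T1R1 (9 without its replicate 1) and from 0 to 1 in exposed 4T1R2 (0 without replicate 1 or 2 of either group). For the difference of response it ranged from 6 to 10 in 4T1R1 (6 without treated 4T1 replicate 3, 7 without treated 4T1R1 replicate 3 or untreated 4T1R1 replicate 1) and from 4 to 16 in 4T1R2 (4 without treated 4T1 replicate 3).

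Calls over all genes in exposed 4T1R1 went from 1874 higher and 1938 lower to 2356 and 1316 under total counts alone, in exposed 4T1R2 from 835 and 588 to 365 and 1146, and for the 4T1R2 difference from 1299 and 1102 to 2091 and 632. They were 562 and 367 in exposed 4T1R2 without its replicate 1, and 583 and 376 without replicate 2 of unexposed 4T1R2. Without treated 4T1 replicate 3 they were 798 and 787 for the 4T1R1 difference and 897 and 668 for the 4T1R2 difference.

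The values showed no pairing of samples by replicate number, since the 45 correlations of deviations between same-numbered samples lay between -0.047 and 0.053. These correlations used all 18 libraries and do not show how the samples were handled. With the replicate number as a block, the numbers of effectors called higher stayed at 10 and 10 in untreated 4T1R1 and 4T1R2 against 4T1 and at 9, 5 and 5 with 17-DMAG in 4T1, 4T1R1 and 4T1R2. Of the pathway genes, 2 were then lower in exposed 4T1R2 and 5 had a higher response in 4T1R1 than in 4T1. Depth limits Ifit3 and Ifit3b most, with 16 to 126 and 12 to 126 counts in a library.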

Other observations

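Genes with a profile close to that of the 10 effectors were looked for among 10630 other genes that had at least 100 normalized counts in their highest group. The measure was the root mean square difference from the median profile of the 10 genes over the 6 group means of log2(normalized count + 1), set relative to untreated 4T1. The closest were Igtp (0.250), Cebpd (0.305), Rab32 (0.307), Irgm2 (0.312) and Serpinb9b (0.349), followed by Oas1b, Prss12, Ddx60, Gbp7 and Arrdc4 (0.413). Of these 10 genes, 3 were on the pathway list (Igtp, Oas1b and Ddx60), which does not hold every interferon-stimulated gene. Of the 10, 7 were also among the closest 10 when the largest difference over the groups was used instead. Igtp, an interferon-inducible GTPase, stood at 1.05 in exposed 4T1, 2.13 in untreated 4T1R1 and 2.13 in untreated 4T1R2 on this scale.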
